A study of Rattus norvegicus with 38 samples.

Results

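CC chemokines and their receptors were followed in rat hearts and blood through 9 genes, the 6 ligands Ccl2, Ccl3, Ccl4, Ccl5, Ccl6 and Ccl9 and the 3 receptors Ccr1, Ccr2 and Ccr4. They were taken by current or former symbol from the array annotation, and each was measured by 1 probeset. The heart array (Affymetrix RAE230A) held 8 of them among 10411 annotated genes and the array used for peripheral blood mononuclear cells (PBMC; RAE230 2.0) held all 9 among 14217. Ccl9 was measured only in PBMC. The study asked how far differences between rat strains mix with acute cardiac rejection. All donor hearts came from Dark Agouti (DA) rats and were joined to the great vessels of the recipient's abdomen, beside the recipient's own heart. A Brown Norway (BN) recipient rejects such a heart, called an allograft, and a DA recipient keeps it, called an isograft. On post-transplant day 6, tissue was taken from 5 allografts, from the 5 native BN hearts of the same recipients, from 4 isografts and from the 4 native DA hearts of those recipients. PBMC were taken on the same day from 5 BN allograft recipients and 9 DA isograft recipients, and also from 3 BN and 3 DA rats without a transplant. The age of the rats is not given in the sources used here.

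The design limits what each difference can be assigned to. A rejecting graft holds DA heart cells together with BN leukocytes of the recipient, so the strain of the cells that entered and rejection cannot be told apart in the allografts. Native BN and DA hearts also differ in the graft their owner carried, and so do PBMC of BN and DA recipients. PBMC of transplanted and of untransplanted rats were processed in separate batches, so a change from untransplanted to transplanted within a strain cannot be told apart from the batch. Comparisons between strains within each PBMC batch do not have this limit. All values are from bulk RNA, in which fewer cells of a type and less RNA per cell cannot be told apart.

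Chemokines are small secreted proteins that direct leukocytes along concentration gradients. The CC class is named for adjacent cysteines near the start of the mature protein, and its receptors span the membrane repeatedly and signal through inhibitory G proteins. Ccl2 acts through Ccr2 and draws monocytes out of the bone marrow and into inflamed tissue. Ccl3 and Ccl5 bind Ccr1 among other receptors, and activated T cells, natural killer cells and macrophages release both of them as well as Ccl4. In a heart graft, this class of molecules is known for guiding recipient monocytes and T cells into the tissue. Ccr4, the receptor of Ccl17 and Ccl22, marks regulatory, skin-homing and other CD4+ T cells. Ccl6 and Ccl9 are known from the mouse as myeloid chemokines that act through Ccr1.

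All 6 ligand genes lie on chromosome 10 of the rat assembly GRCr8. Ccl5, Ccl9, Ccl6, Ccl3 and Ccl4 follow one another there with 0 protein-coding genes between neighbours, and Ccl2 lies on the far side of 31 others. The receptor genes lie on chromosome 8, Ccr1 and Ccr2 with Ccr3 and Ccr1l1 between them. In the chromosome 10 row, Ccl3 was higher and Ccl5 lower in BN than in DA PBMC, and neither had an entry in the promoter table. Ccl6 and Ccl9 are direct neighbours in this row, and both were also higher in BN than in DA PBMC, as described further on. Their promoters are shown for this reason, from 250 bases before to 50 bases after the annotated start of transcription, 5′ to 3′ on the minus strand (RefSeq, GRCr8, chr10:68883317-68883616 for Ccl6 and chr10:68868828-68869127 for Ccl9). Capitals mark the bases that are identical in the best local alignment of the pair.
Ccl6: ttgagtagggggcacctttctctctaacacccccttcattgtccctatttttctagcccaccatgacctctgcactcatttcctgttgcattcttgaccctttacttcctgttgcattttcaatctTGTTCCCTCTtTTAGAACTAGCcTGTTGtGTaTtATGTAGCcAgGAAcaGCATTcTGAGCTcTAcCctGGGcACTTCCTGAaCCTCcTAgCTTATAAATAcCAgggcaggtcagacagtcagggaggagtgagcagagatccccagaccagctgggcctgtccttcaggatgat
Ccl9: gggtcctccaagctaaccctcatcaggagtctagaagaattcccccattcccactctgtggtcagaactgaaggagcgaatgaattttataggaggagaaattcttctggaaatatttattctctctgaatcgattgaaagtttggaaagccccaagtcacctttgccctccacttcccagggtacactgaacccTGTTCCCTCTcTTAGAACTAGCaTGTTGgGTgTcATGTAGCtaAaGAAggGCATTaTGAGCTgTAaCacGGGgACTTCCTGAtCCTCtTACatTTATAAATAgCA
The aligned stretch ran from -124 to -22 of Ccl6 and from -55 to 50 of Ccl9, counted from the annotated start. It held 102 paired bases, of which 84 were identical, and 4 bases in gaps (79.2% identity over the whole stretch). The stretch ends in a shared TATAAA, at -32 in Ccl6 and at 40 in Ccl9, so the same piece of sequence stands at different distances from the annotated start of each gene. TATAAA or its reverse TTTATA was present in 14.2% of 33469 rat promoters of this length. Of the 9 genes, 4 had an entry in the promoter table (Ccl6, Ccl9, Ccr1 and Ccr2), and the motif was found in 2 of them. GRCr8 is an assembly of the BN strain, and DA sequence was not analysed here.

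Signals were divided by the median of all probesets on the same array, so a level of 1 equals the array median. Levels of single genes are compared only within a probeset. A probeset passed the test where the limma adjusted p did not exceed 0.10, with Benjamini-Hochberg adjustment over all 15866 heart or 31042 PBMC probesets. A called probeset also had to differ by 3-fold or more, and 1 of the groups had to hold 50% or more of its samples at or above the array median. Before this division the median signal of an array was 38.3 to 50.8 in hearts and 20.2 to 36.8 in PBMC. Precision is limited by how many arrays each group has. The tissue labels were borne out by marker genes. All 8 measured cardiomyocyte markers reached the array median in at least 1 heart of each heart group. In PBMC the same was true of all 13 T cell markers, while the summed level of the cardiomyocyte markers was at most 3.4 array medians there, against at least 138.8 in hearts.

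Rejecting hearts had higher expression of most of the chosen chemokine and receptor genes. Of the 8 genes on the heart array, 7 rose in allografts relative to isografts, between 2.38-fold and 9.32-fold, against 20.3% of all probesets that passed in this direction. Of these, 6 were called, against 3.81% of all probesets. The median log2 fold change was 2.39 over the 8 genes and 0.02 over all probesets. For 7 genes the allografts did not overlap the isografts, against 15.4% of all probesets. For 6 genes every allograft lay above all 13 other hearts. The share of all probesets that do so was not determined, so the latter count only describes these genes. Ccr4 was the exception among the receptors and Ccl5 had the smallest rise among the ligands.

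Ccl2 (probeset 1367973_at), the main attractant of monocytes, had the smallest spread of the 8 genes among allografts (SD 0.08 on the log2 scale). Its level was 11.9, 12.8, 12.9, 13.4 and 13.8 array medians in the 5 allografts. In the 4 isografts it was 2.81, 3.28, 4.22 and 5.45. No isograft came near an allograft, and the rise was 3.39-fold (log2 fold change 1.76, SE 0.23, limma adjusted p = 1.1e-05). Native hearts were lower again, from 0.954 to 1.57 in BN rats and from 1.01 to 2.07 in DA rats. The order of the 4 groups was therefore allograft, isograft and then the native hearts, whose ranges overlapped.

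Ccl3 (1369815_at) and Ccl4 (1370832_at), the macrophage inflammatory proteins 1 alpha and 1 beta, lay below or near the array median in every heart that was not rejecting. Ccl3 measured 2.82, 2.88, 3.11, 3.19 and 3.52 array medians in allografts. In isografts it measured 0.368, 0.507, 0.673 and 0.768, and no native heart exceeded 0.696. The rise over isografts was 5.56-fold (log2 2.47, SE 0.35, limma adjusted p = 2.41e-05). Ccl4 spread more among the allografts, at 2.63, 3.24, 4.21, 6.01 and 6.18, with replicates 3 and 4 highest. The isografts were close together at 0.757, 0.783, 0.802 and 0.861, and Ccl4 rose 5.27-fold (log2 2.40, SE 0.22, limma adjusted p = 3.39e-07). For both genes the other 3 groups overlapped.

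Ccl5 (1369983_at), also known as Rantes and made in quantity by effector T cells, rose least. The allografts measured 4.09, 4.79, 5.78, 7.65 and 12.7 array medians and the isografts 1.91, 2.44, 3.03 and 3.75. All allografts lay above all isografts, yet the lowest allograft lay within the range of the native DA hearts (1.88 to 4.29). The rise over isografts was 2.38-fold (log2 1.25, SE 0.31, limma adjusted p = 0.00392), short of the 3-fold criterion. As with Ccl4, replicates 3 and 4 were the highest allografts.

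Ccl6 (1389123_at), a myeloid chemokine in the mouse, was also well separated. In allografts its level was 10.3, 10.8, 14, 14.1 and 19.1 array medians, highest in replicate 5. In isografts it was 1.71, 2.45, 2.74 and 3.63. The groups were far apart, and Ccl6 rose 5.23-fold (log2 2.39, SE 0.27, limma adjusted p = 2.58e-06). Native BN hearts, at 1.45 to 3.4, covered much the same range as the isografts, and native DA hearts, at 1.14 to 1.53, lay below all isografts.

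Among the receptors, Ccr1 (1370083_at), which binds Ccl3 and Ccl5 and is carried by monocytes and neutrophils, had the largest fold change of the 8 genes. Allografts measured 2.64, 2.96, 3.26, 3.5 and 4.81 array medians and isografts 0.187, 0.365, 0.49 and 0.505. The rise was 9.32-fold (log2 3.22, SE 0.58, limma adjusted p = 0.000321) with a 95% confidence interval from 3.96-fold to 21.9-fold. All isografts lay at or below the 33.3 percentile of their array. With 0.25 array medians added before the log, the log2 fold change was 2.54.

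Ccr2 (1387742_at), the Ccl2 receptor of inflammatory monocytes, was below the array median in every heart that was not rejecting. Allografts measured 0.913, 1.1, 1.23, 1.49 and 1.63 array medians, and the isografts 0.0817, 0.187, 0.295 and 0.486. It rose 5.76-fold (log2 2.53, SE 0.46, limma adjusted p = 0.000362), and 4 of 5 allografts were at or above the array median. With 0.25 array medians added, the log2 fold change was 1.61. Ccr4 (1369555_at) was below the array median in all hearts, at 0.223 to 0.57 in allografts and 0.276 to 0.503 in isografts. These ranges overlapped, and its log2 fold change was -0.04 (95% confidence interval -0.66 to 0.58, limma adjusted p = 0.934).

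**Figure D1:**
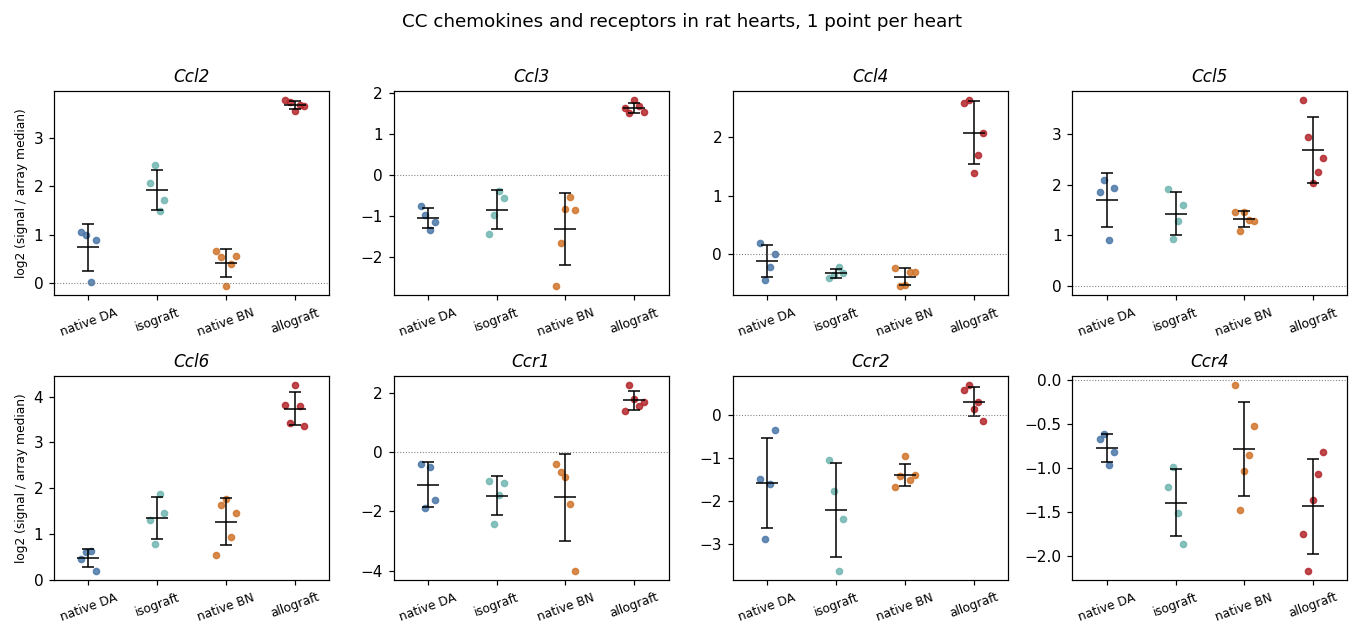
Level of each gene in every heart, as log2 of the signal over the array median (y axis, dotted line at the array median), by group on the x axis. Points are hearts, the long bar is the group mean and the whiskers are 1 SD (n = 4, 4, 5 and 5 from left to right). The allografts stand above the other groups for 7 genes, with Ccl5 partly overlapping native DA hearts, and Ccr4 shows no such step.

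Markers of the cells that carry these molecules moved in the same comparison. All 7 measured monocyte and macrophage markers of 14 listed rose, with a median log2 fold change of 3.09, and their summed level was 190.9 to 333 array medians in allografts against 41.9 to 71.5 in isografts. All 11 measured T cell markers rose (summed level 22.6 to 48.9 against 6.39 to 7.5), 6 of 9 natural killer cell markers rose (9.71 to 24.2 against 3.32 to 4.1) and 6 of 7 neutrophil markers rose (8.1 to 32.4 against 2.52 to 3.65). Of 8 cardiomyocyte markers 7 fell, and their sum was 138.8 to 365.4 against 514.6 to 908.4. Of the other marker lists, 1 of 2 B cell, 1 of 4 platelet, 1 of 6 endothelial and 1 of 8 fibroblast markers rose, while 5 fibroblast, 1 endothelial and 1 of 5 red cell markers fell. Of 7 eosinophil, basophil and mast cell markers, 0 passed, also at an unadjusted p under 0.05, and 6 of them were below the array median in every allograft. In isografts, 9 of the 11 T cell markers were below the array median in every heart, among them Cd3d, Cd3e, Cd3g, Cd8a and Cd8b. The part of these cell types in the chemokine result was not tested.

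Partners of these genes were followed through lists of the same pathway. Of 7 other measured CC and XC ligands, 3 rose in allografts, and 2 of them were called. Xcl1 (lymphotactin, a product of activated CD8+ T cells and natural killer cells) rose 7.08-fold (log2 2.82, SE 0.53), Ccl20, the ligand of Ccr6, 4.66-fold (2.22, SE 0.42) and Ccl27, a skin chemokine, 3.66-fold (1.87, SE 0.42), all with a limma adjusted p of at most 0.00212. Xcl1 and Ccl20 were below the array median in every isograft, so the size of their folds depends on how dim signals are treated. Ccl17 and Ccl22, the ligands of Ccr4, did not pass the test and were below the array median in every heart. Of the other receptors only Ccr3, the eotaxin receptor, and the scavenging receptor Ackr2 were on the heart array. Neither passed, at log2 fold changes of -0.20 (limma adjusted p = 0.617) and -0.09 (limma adjusted p = 0.79). Of 19 measured genes that carry or damp the receptors' signal, 16 rose and none fell (median log2 1.94). Among them were Rgs1, which shortens G protein signals in lymphocytes (8.39-fold), the myeloid kinase Fgr (7.83-fold), the arrestin Arrb2, which uncouples and internalizes the receptors (6.29-fold), and the kinase Ptk2b (6.2-fold). Rgs1, Arrb2 and Ptk2b were below the array median in every isograft, which limits the size of their folds in the same way.

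Transplantation without rejection changed fewer of these genes. Relative to the native DA heart beside the graft, 2 of 8 genes rose in isografts, against 7.15% of all probesets. Ccl2 rose 2.29-fold (log2 1.19, SE 0.24, limma adjusted p = 0.00798). The native DA hearts measured 1.01, 1.85, 1.99 and 2.07 array medians, all below the lowest isograft at 2.81. Ccl6 rose 1.84-fold (log2 0.88, SE 0.28, limma adjusted p = 0.0665), from native values of 1.14, 1.37, 1.52 and 1.53 to isograft values that began at 1.71. It no longer passed without isograft 12 (log2 0.71, limma adjusted p = 0.187), without isograft 13 (0.84, 0.12), and without native DA heart 9 (0.87, 0.125) or 13 (0.79, 0.162).

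The remaining genes had smaller or less certain differences in isografts. Ccl3 had a log2 fold change of 0.20, Ccl4 of -0.21, Ccl5 of -0.27, Ccr1 of -0.37 and Ccr2 of -0.63, none of which passed. Ccr4 was lower in all 4 isografts than in all 4 native DA hearts (0.513 to 0.655), but its log2 fold change of -0.62 (95% confidence interval -1.28 to 0.03) missed the threshold with a limma adjusted p = 0.225. Isografts lay wholly below native DA hearts in 8.06% of all probesets and wholly above them in 8.68%, the latter here for Ccl2 and Ccl6. The median was -0.24 over the 8 genes and -0.08 over all probesets. Monocyte markers moved in this comparison as well, with 5 of 7 higher, and 5 of 8 fibroblast and matrix markers were higher, while 1 T cell and 2 natural killer cell markers were lower. Their part in the rises of Ccl2 and Ccl6 was not tested. Of the signalling genes 3 of 19 rose and 0 were called (4 had an unadjusted p under 0.05 in limma). Arrb2 changed most, and it was below the array median in all isografts and all native DA hearts.

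The same recipients carried both hearts, so each graft could be set against the native heart beside it. In allograft recipients the graft was a DA heart beside a BN heart. Strain of the heart and rejection cannot be told apart in these pairs. In all 5 allograft recipients, 7 genes were higher in the graft than in the native BN heart. The ratio ran from 8.66 to 12.5 for Ccl2, from 4.58 to 20.2 for Ccl3 and from 3.79 to 8.98 for Ccl4. For Ccl5 it ran from 1.48 to 4.59, for Ccl6 from 3.47 to 9.73, for Ccr2 from 2.14 to 4.72 and for Ccr1 from 3.46 to 52.2. The highest Ccr1 ratio came from recipient 7, whose native heart had the lowest Ccr1 signal of all (0.0625). Likewise, the highest Ccl3 ratio came from recipient 3, whose native heart had the lowest Ccl3 level of all hearts (0.154). The next highest Ccl3 ratio was 8.91. Ccr4 was lower in the graft in all 5 pairs (ratio 0.309 to 0.86). In isograft recipients, only Ccl2 (1.77 to 2.77) and Ccl6 (1.12 to 2.4) were higher in the graft in all 4 pairs. Ccr4 was lower in all 4 (0.486 to 0.768), and the other 5 genes went in both directions. The share of all probesets with the same direction in every pair was not determined, so these counts only describe the genes.

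**Figure D2:**
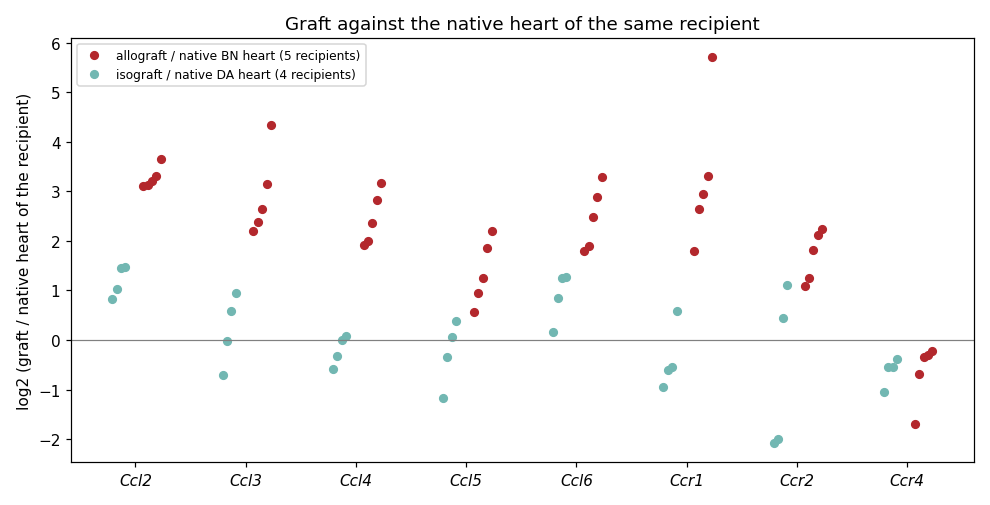
Log2 ratio of each graft over the native heart of the same recipient (y axis, line at no difference) for each gene on the x axis, with points sorted by value. All 5 allograft pairs lie above 0 for 7 genes, isograft pairs do so for Ccl2 and Ccl6, and every pair lies below 0 for Ccr4.

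Over groups, 7 genes were higher in allografts than in the native BN hearts, against 23.1% of all probesets, and 6 were called, against 5.41%. Fold changes were 9.74 for Ccl2, 9.69 for Ccr1, 7.68 for Ccl3, 5.54 for Ccl6, 5.48 for Ccl4, 3.26 for Ccr2 and 2.57 for Ccl5, each with a limma adjusted p of at most 0.00434. Ccr1 rose by 2.66 on the log2 scale without native BN heart 7 and by 3.28 with it. With 0.25 array medians added, the log2 fold change was 2.46 for Ccr1, 2.31 for Ccl3 and 1.24 for Ccr2. Ccr2 was therefore short of the 3-fold criterion in that setting and was not called. Ccr4 fell by 0.65 on the log2 scale (SE 0.28, limma adjusted p = 0.07), against 26.3% of all probesets that were lower, and this was lost without allograft 3 (adjusted p = 0.145) or 4 (0.189) and without native BN heart 3 (0.191) or 7 (0.139). The rise over the native heart was larger in allografts than in isografts for 7 of 8 genes by the interaction term of the same model, against 14.1% of all probesets, and all 7 were called, against 3.44%. With 0.25 array medians added 4 were called, and Ccl5, Ccl6 and Ccr2 were not. The interaction term equals the log2 rejection difference less that between native BN and DA hearts, so it is not independent of those comparisons. The excess was largest for Ccr1 (log2 3.65, SE 0.83), Ccl3 (2.74, SE 0.49) and Ccl4 (2.66, SE 0.31) and smallest for Ccl6 (1.59, SE 0.38) and Ccl5 (1.63, SE 0.44), with limma adjusted p-values of at most 0.0153. For Ccr4 it was -0.02 (limma adjusted p = 0.981). Ccr1 had an excess of 3.03 without native BN heart 7, and with 0.25 array medians added the excess was 2.70 for Ccr1 and 1.56 for Ccr2.

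Between native BN and DA hearts, 0 of 8 genes passed in limma, against 2.94% of all probesets. At that share, a count of 0 among 8 genes says little about these genes. The ordinary linear model also passed 0, and in limma 1 gene had an unadjusted p under 0.05. That gene was Ccl6, at 1.45, 1.89, 2.75, 3.1 and 3.4 array medians in BN hearts and 1.14 to 1.53 in DA hearts, where only BN heart 3 lay within the DA range. The difference was 1.74-fold (95% confidence interval 1.17-fold to 2.58-fold, limma adjusted p = 0.168). It passed without that heart (log2 0.98, limma adjusted p = 0.0843). For the other 7 genes the log2 difference lay between -0.43 and 0.19, with the widest interval for Ccr1 (-1.67 to 0.80).

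In PBMC, by contrast, the strains differed in most of these genes before any transplant. Of 9 genes, 5 were higher in untransplanted BN than DA rats (against 3.58% of all probesets), 2 were lower (against 4.86%) and 2 did not pass. Called were 3 as higher, against 0.425%, and 1 as lower, against 0.622%. With the signal criterion at the 65th percentile of the array in place of the median, 2 were called, Ccr2 and Ccr4. For 8 genes the 3 BN rats did not overlap the 3 DA rats, 5 with BN higher and 3 with BN lower, where the shares over all probesets were 9.53% and 19.1%. The median log2 fold change was 0.94 over the 9 genes and -0.08 over all probesets.

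The receptors Ccr2 and Ccr4 were both higher in BN blood. Ccr2 measured 8.74, 10.8 and 13.6 array medians in BN rats and 1.33, 2.46 and 4.39 in DA rats. The difference was 4.48-fold (log2 2.16, SE 0.57, limma adjusted p = 0.0308), and it no longer passed without BN rat 2 (log2 2.00, adjusted p = 0.1004) or without DA rat 3 (0.136). Ccr4 measured 2.12, 3.19 and 3.66 in BN and 0.378, 0.588 and 0.619 in DA, a 5.64-fold difference (log2 2.50, SE 0.39, limma adjusted p = 0.000612). Each BN rat exceeded each DA rat for both receptors. Ccr1 had overlapping values of 2.34 to 3.38 in BN and 2.5 to 4.65 in DA (log2 -0.17, 95% confidence interval -0.83 to 0.49, limma adjusted p = 0.842).

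The ligand genes went in both directions. Ccl9 (1392172_at) measured 1.57, 1.7 and 1.92 array medians in BN rats and 0.039, 0.0454 and 0.235 in DA rats, 23.1-fold apart (log2 4.53, SE 0.62, limma adjusted p = 0.000179). The DA signals lay between the 7.2 and 24.8 percentiles of their arrays, so the size of the fold depends on how dim signals are treated. The log2 fold change was 2.51 with 0.25 array medians added and 5.36 without DA rat 3. Its neighbour Ccl6 was bright in both strains, at 37.4, 42.9 and 44.4 in BN and 11.3, 14.6 and 21.9 in DA, and was 2.71-fold higher in BN (log2 1.44, SE 0.25, limma adjusted p = 0.00182). Ccl3 was 1.92-fold higher in BN (16.8, 21.4 and 21.8 against 8.98, 10.1 and 12.4, log2 0.94, SE 0.24, limma adjusted p = 0.0292). It no longer passed without BN rat 1 (adjusted p = 0.11), BN rat 3 (0.106) or DA rat 2 (0.113).

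Ccl2 showed the reverse pattern. It measured 0.0378, 0.11 and 0.357 array medians in untransplanted BN rats and 1.97, 2.36 and 2.77 in DA rats. The BN level was 20.6-fold lower (log2 -4.36, SE 0.62, limma adjusted p = 0.000255). BN signals lay between the 6.3 and 30.4 percentiles of their arrays, and the log2 fold change was -2.71 with 0.25 array medians added, -5.19 without BN rat 2 and -3.57 without BN rat 3. Ccl5, among the brightest probesets of every PBMC array, was 1.81-fold lower in BN (78, 85.3 and 112 against 151, 160 and 182, log2 -0.86, SE 0.21, limma adjusted p = 0.018). Ccl4 was below the DA range in all 3 BN rats (6.35 to 7.34 against 8.18 to 10.1) but did not pass (log2 -0.40, 95% confidence interval -0.97 to 0.16, limma adjusted p = 0.475).

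**Figure D3:**
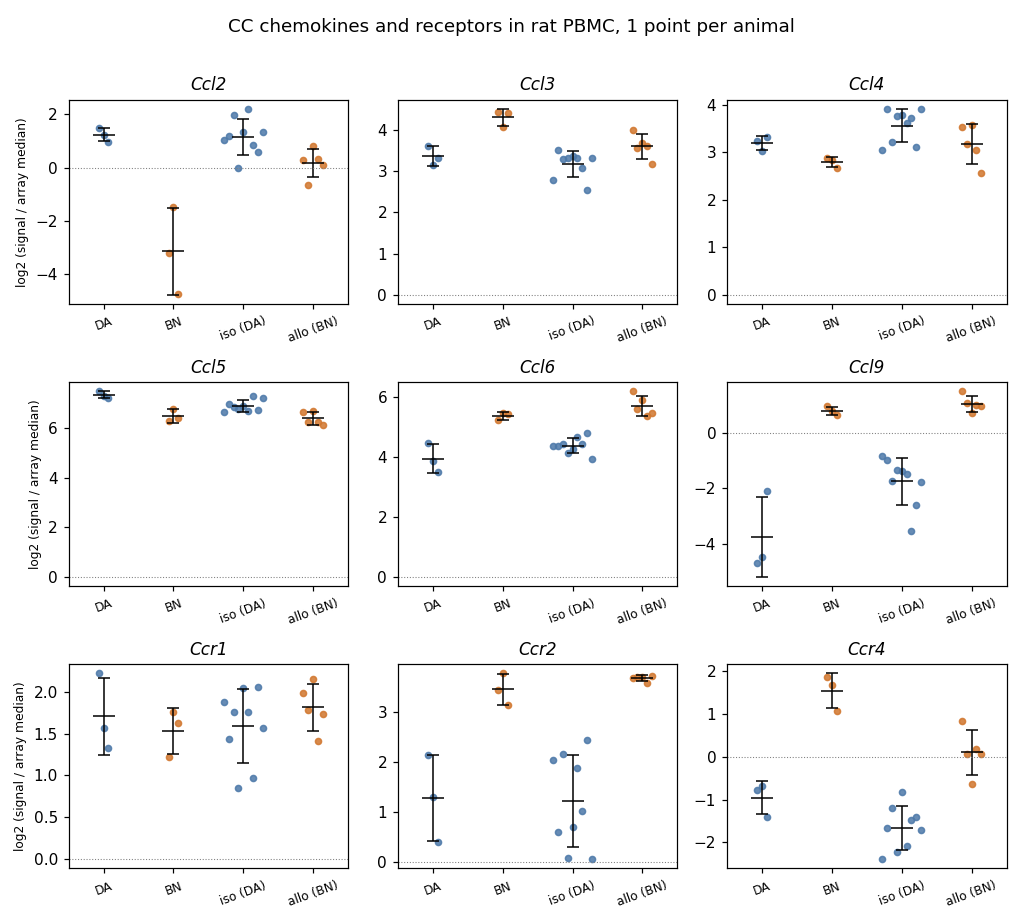
Level of each gene in PBMC of every rat, as log2 of the signal over the array median (y axis, dotted line at the array median), for untransplanted DA and BN rats and for DA isograft and BN allograft recipients (x axis; n = 3, 3, 9 and 5). Long bars are group means and whiskers are 1 SD. BN rats lie above DA rats in both settings for Ccl6, Ccl9, Ccr2 and Ccr4, and Ccl2 is lowest in untransplanted BN rats.

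Blood cell markers also differed between the untransplanted strains. Of 12 monocyte and macrophage markers 9 were higher in BN rats (median log2 0.98), with summed levels of 365.3 to 444.6 array medians in BN and 292.2 to 448.7 in DA rats. Of 13 T cell markers 9 were lower (summed level 554 to 608.7 against 997.6 to 1044) and of 11 natural killer cell markers 7 were lower (131 to 169.1 against 292.2 to 336.4). Of 6 platelet markers 2 were lower and 1 higher, and 1 of 5 B cell markers was higher. The part of these cell types in the chemokine differences was not tested. Xcl1 was the only one of 11 other CC and XC ligands to pass, 3.12-fold lower in BN (log2 -1.64, SE 0.35, limma adjusted p = 0.00826). Of 7 other receptors, Ccr3 was 2.82-fold higher (log2 1.49, SE 0.42, limma adjusted p = 0.044), and of 22 signalling genes 2 were higher and 3 lower.

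Recipients also differed in most of these genes on day 6. Between BN allograft and DA isograft recipients, 5 of 9 genes were higher (against 6.66% of all probesets) and 1 was lower (against 12%), and 3 were called as higher (against 0.403%). With the signal criterion at the 65th percentile 1 was called, Ccr2. The groups did not overlap for 4 genes, all higher in allograft recipients, against 2.39% of all probesets. The median log2 fold change was 0.43 over the 9 genes and -0.03 over all probesets. Ccl6 measured 41.6, 44.2, 48.8, 59.7 and 73.2 array medians in the 5 allograft recipients, and 15.4 at lowest, 20.5 at the median and 27.7 at highest in the 9 isograft recipients. The difference was 2.52-fold (log2 1.33, SE 0.17, limma adjusted p = 3.44e-05), beside 2.71-fold between untransplanted strains.

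Ccl9 measured 1.63, 1.93, 1.98, 2.06 and 2.81 in allograft recipients, and between 0.0874 and 0.554 with a median of 0.358 in isograft recipients. It was 6.87-fold higher (log2 2.78, SE 0.42, limma adjusted p = 0.000187), and the log2 fold change was 2.02 with 0.25 array medians added. Its ranges with and without a transplant, which cross the batches, overlapped within each strain, and so did those of Ccr2. Ccr2 measured 11.8, 12.8, 12.9, 12.9 and 13.1 in allograft recipients, a narrow range, and between 1.05 and 5.42 with a median of 2.04 in isograft recipients. The difference was 5.44-fold (log2 2.44, SE 0.39, limma adjusted p = 0.000286), beside 4.48-fold without a transplant. Ccr4 measured 0.644, 1.05, 1.05, 1.14 and 1.8 in allograft recipients and between 0.191 and 0.569 with a median of 0.314 in isograft recipients, 3.41-fold apart (log2 1.77, SE 0.27, limma adjusted p = 0.000159). The order of groups for Ccr4 was untransplanted BN (2.12 to 3.66), allograft recipients, and then the DA groups, whose ranges overlapped, and the first step of this order crosses the batches.

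The other ligands differed less between recipients. Ccl3 was 1.35-fold higher in allograft recipients (log2 0.43, SE 0.17, limma adjusted p = 0.0974), with ranges of 9.01 to 16 and 5.84 to 11.5 that overlapped, and it no longer passed on leaving out any of 15 of the 20 rats. Ccl5 was 1.4-fold lower (70.7 to 105 against 102 to 158, log2 -0.49, SE 0.14, limma adjusted p = 0.0262), and after quantile normalization its log2 fold change was -0.18 (limma adjusted p = 0.239). Ccl4 had a log2 fold change of -0.39 (limma adjusted p = 0.191) and Ccr1 of 0.22 (limma adjusted p = 0.569). Ccl2 ran from 0.641 to 1.74 in allograft recipients and from 0.982 to 4.6 in isograft recipients. These ranges overlapped, and its log2 fold change of -0.98 (95% confidence interval -1.87 to -0.09) did not pass, with a limma adjusted p = 0.147. It passed without isograft recipient 14 (adjusted p = 0.0835) and without untransplanted BN rat 2 (0.0689) or 3 (0.0756), which share the estimate of the spread.

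Ccl2 was the only one of the 9 genes for which the difference between recipients departed from the difference between untransplanted strains by the interaction term, against 0.213% of all probesets, and it was called, against 0.0709%. The ratio of both effects was 10.5 (log2 3.39, SE 0.75, limma adjusted p = 0.0872). The BN ranges, 0.0378 to 0.357 without a transplant and 0.641 to 1.74 with a rejecting graft, did not overlap, and the DA ranges, 1.97 to 2.77 and 0.982 to 4.6, did. Within each strain these ranges cross the processing batches, so transplant and batch cannot be told apart. The untransplanted BN signals were also far below the array median. The call passed the threshold narrowly and was lost on leaving out any of 15 of the 20 rats, with an adjusted p of up to 0.243 without untransplanted BN rat 3 (log2 2.59, against 4.21 without BN rat 2). It was also lost after quantile normalization, with the deposited scaling, with 0.25 array medians added (log2 1.86) and in the ordinary linear model. For the other 8 genes the log2 ratio lay between -1.75 (Ccl9, limma adjusted p = 0.54) and 0.39 (Ccr1).

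Blood markers in recipients moved as follows. Of 12 monocyte markers 8 were higher and 1 lower in allograft recipients (summed level 340.5 to 520.1 array medians against 268.7 to 426), and 12 of 13 T cell markers were lower (238.7 to 411.8 against 389.6 to 656.5). Of 11 natural killer cell markers 3 were lower and 1 higher, of 9 neutrophil markers 4 were higher and 3 lower, 5 of 6 platelet and 5 of 6 red cell markers were lower, and 3 of 5 B cell markers were higher. Their part in the result was not tested. Xcl1 was 2.97-fold lower (log2 -1.57, SE 0.24, limma adjusted p = 0.000195), and Ccr6, the Ccl20 receptor, was 1.74-fold higher (log2 0.80, SE 0.15, limma adjusted p = 0.00133). Of 22 signalling genes 2 were higher, led by Rgs2 (2.48-fold), and 7 were lower, among them Rgs1 (2.52-fold) and Arrb2 (1.83-fold).

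**Figure D4:**
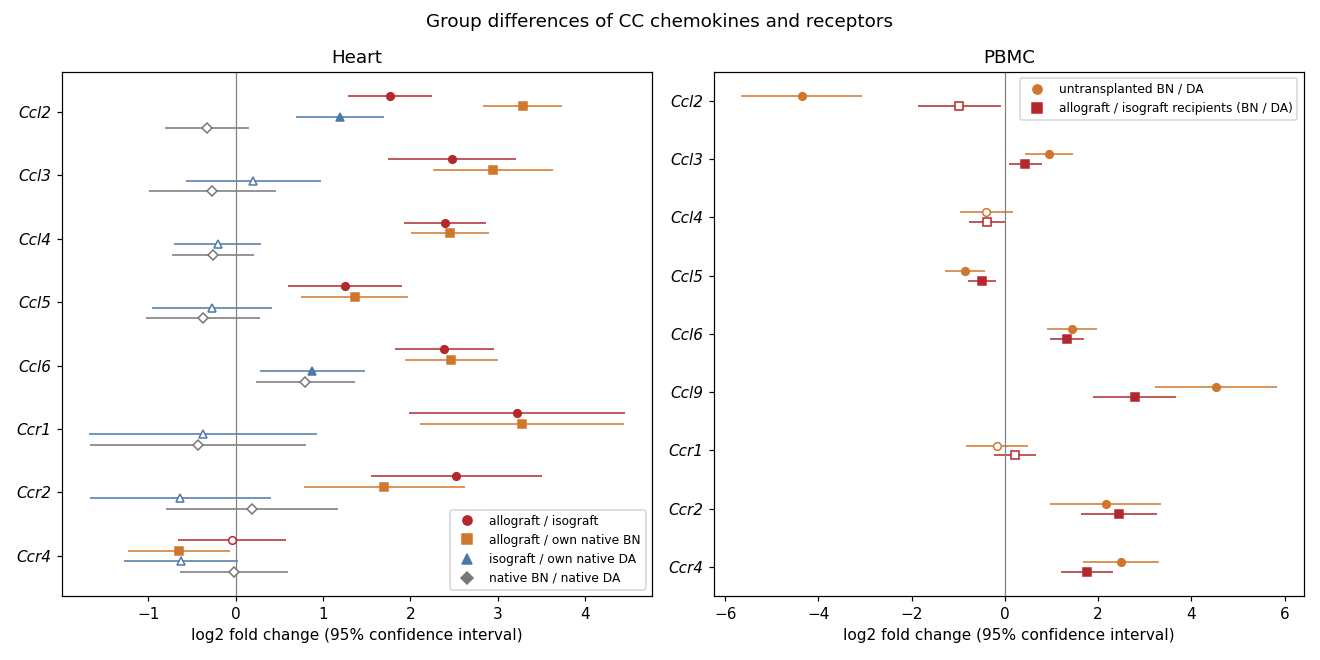
Log2 fold change (x axis) with its 95% confidence interval for each gene (y axis), in hearts on the left and PBMC on the right, with filled symbols where the limma adjusted p was at most 0.10. In hearts the allograft comparisons lie to the right of 0 for 7 genes and all symbols of native BN over DA are unfilled. In PBMC both comparisons of BN with DA rats, the second of which also holds rejection, lie to the right for Ccl3, Ccl6, Ccl9, Ccr2 and Ccr4.

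Ccl3, Ccl6 and Ccr2 were higher both in BN blood and in allografts. Ccl6 was 2.71-fold and 2.52-fold higher in BN PBMC without and with a transplant, and 5.23-fold higher in allografts than isografts. Ccr2 was 4.48-fold and 5.44-fold higher in BN PBMC and 5.76-fold higher in allografts. Ccl2 and Ccl5 rose in allografts, while both were lower in untransplanted BN than DA blood. Ccr4 was 5.64-fold and 3.41-fold higher in BN PBMC, while its log2 fold change in allografts over isografts was -0.04. Ccl4 and Ccr1 rose 5.27-fold and 9.32-fold in allografts and passed in neither PBMC comparison of BN with DA rats. Whether the blood and graft differences are linked was not tested. Heart and PBMC levels come from different array types and labelling kits. Apart from the summed cardiomyocyte markers used to check the tissue labels, they were not set against each other. Equal binding of the probes to transcripts of both strains was not tested.

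Genes with the most similar course were found by the root mean square (RMS) difference of log2 levels after centring each gene on its mean over all arrays of a tissue. Over the 18 hearts, Ccl4 was closest to Psmb9, an immunoproteasome subunit (RMS difference 0.23), followed by Rac2, a leukocyte GTPase of chemokine signalling (0.25), and Dram1 (0.26), where the median over all other probesets was 1.25. Ccl2 was closest to Adss2 (0.29), Serpinb9, an inhibitor of granzyme B (0.41), and Ifi30, an interferon-induced lysosomal reductase (0.44). For Ccl6 the closest genes were Il17ra (0.30), Glul, which makes glutamine (0.35), and Arpc1b (0.37). For Ccl3 they were Igsf6 (0.36), Ube2c (0.38) and Pgd (0.48), and for Ccl5 Commd9 (0.29), the proteasome activator subunit Psme2 (0.31) and H2az1 (0.32). For Ccr4 they were Il1rl2 (0.28), Slc24a3 (0.30) and Irs1 (0.31). The nearest genes were further off for Ccr1, with Ripk3 (0.73), Cdca8 (0.77) and Slc1a5 (0.80), and for Ccr2, with Ddx39a (0.60), Slc48a1 (0.62) and Yipf1 (0.64).

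Over the 20 PBMC samples, Ccl5 was closest to Pf4 (platelet factor 4, 0.16), Rac2 (0.16) and Pla2g2a (0.16). Ccl6 was closest to Tm6sf1 (0.21), to Fcna, a ficolin of myeloid cells (0.21), and to Arhgap24 (0.23). The nearest genes to Ccl3 were Pdia5 (0.23), Flot1 (0.24) and Mycl (0.26), those to Ccl4 were Dock9, Chn2 and Sema4f (each 0.25), and those to Ccr1 were Grk5 (0.25), C2h1orf162 (0.28) and Lst1 (0.28). Ccr4 was nearest to Dyrk2, Col17a1 and the class II gene RT1-DMa (each 0.49), and Ccr2 to Anxa1 (0.59), Slc25a45 (0.65) and RT1-DMa (0.66). Ccl9 and Ccl2 had the largest nearest differences. Their signals were far below the array median in untransplanted DA rats (Ccl9) and in untransplanted BN rats (Ccl2). Ccl9 was nearest to Fgf12 (0.84), Cadm3 (0.91) and Anxa3 (0.93), and Ccl2 to Cryga (0.88), Dtnbp1 (0.89) and Dact1 (0.93). These likenesses are descriptions over arrays of 4 groups and share the group differences given above.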

How the data were processed

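Heart tissue was measured on 18 RAE230A arrays and PBMC on 20 RAE230 2.0 arrays, 1 per sample. The authors derived the deposited signal intensity of each probeset with the MAS5 algorithm (version not given in the sources used here). Each array was divided by its median and transformed to log2, as in the study's methods, and 57 control probesets per array type were left out. Symbols come from the platform annotation, updated by gene identifier to GRCr8 (1 symbol for 12783 heart and 20826 PBMC probesets, several for 312 and 436, none for 2771 and 9780, of which 12748 and 20758 of the first kind matched the assembly's gene table). Ccr4 is also a former name of Noct, which is not a chemokine receptor and was not taken. Of all arrays, 0 pairs were identical.

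Each tissue was fitted in limma 3.58.1 (R 4.3.3) with a mean for each of 4 groups. The signal criterion takes the place of the present calls used in the study's methods. Comparisons were rejection (allograft over isograft), surgery (isograft over native DA), allograft over native BN, strain (native BN over DA), the difference of both graft effects, and in PBMC strain, strain plus rejection and their ratio. The procedure was tested on simulated data. Each array stands for another rat, or another heart, and p-values refer to the spread between them. Comparisons share groups (rejection and surgery share the isografts), so their values stand side by side without a test of likeness. The 9 genes, the 3 pathway lists and the 11 marker lists were chosen with earlier results of these data known. Named were all 9 genes, up to 4 passing genes per list and comparison with the largest change (brightest probeset), and the 3 genes with the smallest RMS difference. Ccr3 and Ackr2 in rejection, and Ccl17 and Ccl22, were named after their values were seen.

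Hearts were paired by recipient, whose number the labels give for graft and native heart. After removal of group means, pairs correlated between -0.0411 and 0.118 (allografts) and between -0.045 and 0.0701 (isografts). Alternatives were quantile normalization, the deposited scaling, 0.25 array medians added, a filter on dim probesets, other signal criteria, an ordinary linear model, only the groups compared, the replicate block and each array left out.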

Additional observations from a re-analysis of the deposited data

Results flagged for a closer look

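In native DA hearts, Ccl2 was lowest in replicate 12 at 1.01 array medians, apart from the other 3 hearts at 1.85 to 2.07. In PBMC of allograft recipients, Ccr2 was lowest in replicate 6 at 11.8, apart from the other 4 rats at 12.8 to 13.1, although the gap was small beside the difference between strains. Over the 50 groups of values checked for an outlying sample, chance sets apart about 1 in 20 groups.

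Graft effects, each the graft over the native heart of the same recipients, differed between allografts and isografts by the interaction term in limma for 7 genes. The log2 difference was 2.09 for Ccl2, 2.74 for Ccl3, 2.66 for Ccl4, 1.63 for Ccl5, 1.59 for Ccl6, 3.65 for Ccr1 and 2.34 for Ccr2. In PBMC, the difference between recipients and the difference between untransplanted strains departed from each other for Ccl2, by 3.39 on the log2 scale.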

How the results depend on the processing

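Over the settings other than leaving out an array, 418 single-gene results kept direction and side of the threshold, 10 were lost, 4 were gained and 6 changed sign. Of the counts of genes, 108 stayed equal or similar in size, 13 were lower and 1 was higher. A similar count does not mean that the same genes made it up. In the surgical comparison, 1 gene passed after quantile normalization in place of 2 (Ccl6, adjusted p = 0.11), and between 1 and 2 on leaving out 1 array. In native hearts, 1 gene (Ccl6) passed with dim probesets filtered out, and between 0 and 1 on leaving out 1 array. With 0.25 array medians added, 4 genes were called for the difference of graft effects in place of 7. Ccr2 also lost its call in allografts against native BN hearts in that setting. With the signal criterion at the 65th percentile, 2 genes were called in PBMC for strain in place of 4, 1 for strain plus rejection in place of 3 and 0 for the ratio in place of 1. In hearts, Ccr2 did not meet that criterion in any comparison, since no heart exceeded the 62.0 percentile of its array. The ratio also passed and was called for 0 genes after quantile normalization, with the deposited scaling, with 0.25 array medians added and with the ordinary linear model (adjusted p for Ccl2 = 0.199, 0.122, 0.142 and 0.134), and for 0 to 1 on leaving out 1 array. Ccl2 passed for strain plus rejection with 0.25 array medians added (adjusted p = 0.0338), with dim probesets filtered out (0.0731) and with only the groups compared (0.0775). Ccr4 in allografts against native BN hearts was lost with the deposited scaling (adjusted p = 0.158) and with only the groups compared (0.131), and Ccl5 for PBMC strain with only the groups compared (0.102). The deposited scaling moved the median of all PBMC probesets by 0.16 for strain and 0.13 for strain plus rejection on the log2 scale.

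Values near 0 changed sign. Ccr4 was 0.041 for rejection and 0.022 for the difference of graft effects with the deposited scaling, and 0.015, 0.019 and 0.0023 for heart strain after quantile normalization, with the deposited scaling and with 0.25 array medians added. Ccl4 was -0.017 for the PBMC ratio with the deposited scaling. On leaving out 1 array, Ccr4 ran from -0.20 to 0.14 (rejection), -0.20 to 0.16 (heart strain) and -0.20 to 0.16 (difference of graft effects), Ccl3 from -0.46 to 0.081, Ccr1 from -0.71 to 0.19 and Ccr2 from -0.24 to 0.60 (heart strain), Ccr1 from -0.36 to 0.088 (PBMC strain), and Ccl4 from -0.084 to 0.17, Ccl6 from -0.36 to 0.12 and Ccr2 from -0.14 to 0.72 (PBMC ratio).

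The replicate block by recipient changed no call, with 7 genes passed for rejection, 2 for surgery, 8 for allograft over native, 0 for strain and 7 for the difference of graft effects. Untransplanted BN and DA rats share only a number (correlations 0.003 to 0.0365), and a block on it left 7 genes passed. The causes of these shifts were not tested. Probesets far below the array median limit the folds of Ccl2, Ccl3, Ccl9, Ccr1 and Ccr2. Each gene has 1 probeset, so other probesets of a gene were not tried.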
